A study of Homo sapiens with 9 samples.

Results

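The genes described here were 45 genes of ribosome production and cell growth commonly listed as targets of the transcription factor MYC, and they were found by symbol among the 26485 genes of a count table from MV4;11 cells. MV4;11 is a human acute myeloid leukaemia line with a rearranged MLL gene. All 45 were among the 12845 genes that passed the filter on low counts. RNA was sequenced from 3 libraries of cells with MYC carrying K148R, 3 with K148Q and 3 of parental cells, all untreated and grown in RPMI. In K148R the lysine is replaced by arginine, which keeps the positive charge and cannot be acetylated. In K148Q it is replaced by glutamine, a common stand-in for acetyl-lysine. Details of how the substitutions were introduced, whether a line is 1 clone and whether replicates were separate cultures were not given in the sources used here, so p-values measure the spread between these libraries, which may be technical.

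Ribosomes are built in the nucleolus. RNA polymerase I transcribes a long precursor of ribosomal RNA, small nucleolar ribonucleoproteins (snoRNPs) modify it, and a large set of assembly factors fold, cut and export the small and large subunits. MYC drives this programme in growing cells by binding E-box sequences near the starts of many of these genes, along with genes of polyamine synthesis and mitochondrial gene expression. The question here was how the RNA levels of these genes differed when lysine K148 of MYC was replaced.

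Total counts were 15161009 to 18938391 in K148R, 14477839 to 15708821 in K148Q and 13747087 to 16636974 in parental libraries. The 10 myeloid leukaemia markers all exceeded 1 CPM (counts scaled to a common library size), with summed levels of 3338 to 3371 CPM in K148R, 2178 to 2235 CPM in K148Q and 1555 to 1560 CPM in parental libraries. LYZ made up most of the difference between K148R and parental libraries, at 1628 to 1670.4 CPM in K148R, 451 to 565 CPM in K148Q and 158 to 164 CPM in parental libraries, while FLT3 was at 299.5 to 304 CPM in K148R, 656 to 708 CPM in K148Q and 644 to 659.98 CPM in parental libraries. MPO and MEIS1 were below the parental libraries in both mutants, and FLT3 in K148R only. LYZ, CD33, PTPRC, SPI1, CSF1R and CEBPA were above the parental libraries in both mutants, and HOXA9 in K148R only. Of the markers of other cell types, the T and NK cell list summed to 26.6 to 28.0 CPM in K148R, 24.5 to 27.02 CPM in K148Q and 50.04 to 55.8 CPM in parental libraries, nearly all of it from NKG7, with CD3E and KLRD1 at 0 in all 9. The B cell, erythroid, fibroblast and epithelial lists each summed to at most 7.99 CPM in any library. RN7SK, a small nuclear RNA, ranged over 435 to 523 CPM in K148R, 3.72 to 7.43 CPM in K148Q and 4.17 to 15.98 CPM in parental libraries. The part of these differences in the results below was not tested. MYC itself averaged 379 ± 3.38 CPM in K148R, 473 ± 29.5 CPM in K148Q and 333 ± 4.05 CPM in parental cells (SD, n = 3 each), with log2 fold changes of 0.18 (adjusted p = 0.0045) for K148R and 0.50 (adjusted p = 1.5e-06) for K148Q against parental cells.

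One library stood apart. Over the 45 genes, K148Q replicate 3 lay a median of 0.15 below the mean of the other 2 K148Q libraries on the log2 scale. The SD of its deviation between genes was 0.20. That SD was 0.11 and 0.10 in K148Q replicates 1 and 2, 0.09 to 0.12 in the K148R libraries and 0.05 to 0.06 in the parental libraries. The deviation of K148Q replicate 3 followed the GC content of the transcripts (Spearman correlation -0.89 over the 45 genes, which come from the same libraries and are not independent). Among the K148R libraries the corresponding correlations were 0.67, 0.01 and -0.62. The 45 genes were richer in GC than tested genes at large, with a median of 54.1% against 48.7%. Counts of calls over all 45 genes are therefore given with and without that library, and the genes whose call it changed are named. Counts by role, by E-box class and for the other gene lists are given with all libraries only.

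**Figure D1:**
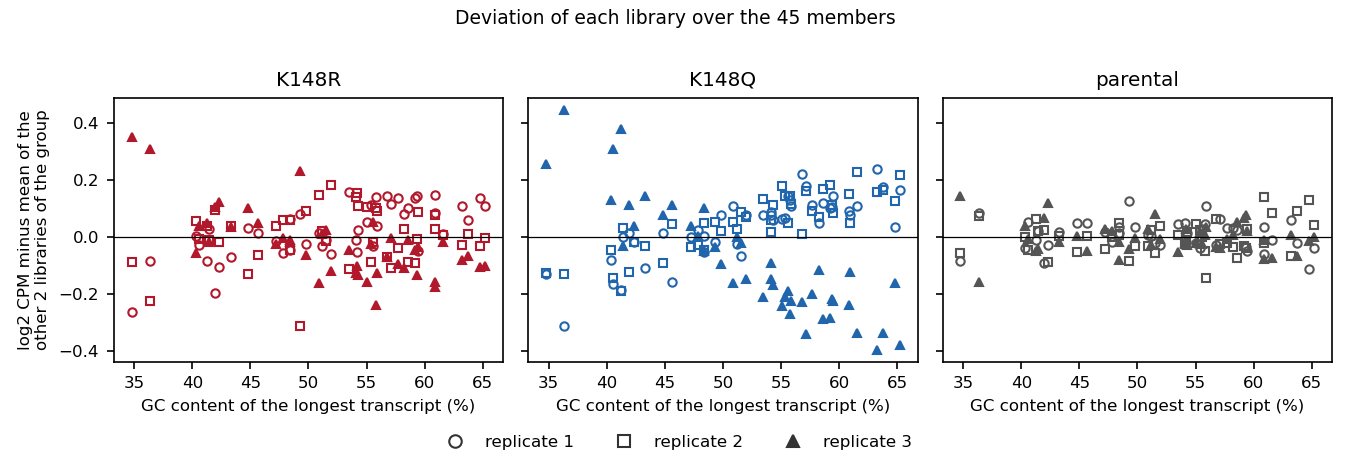
Deviation of each library from the mean of the other 2 libraries of its group (log2 CPM, vertical axis) against the GC content of the longest transcript (percent, horizontal axis), with 1 point per gene and library for the 45 genes. Filled triangles of K148Q replicate 3 fall with GC content, while the parental points stay near 0.

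The E-box CACGTG, the sequence that MYC and its partner MAX bind, was looked for in RefSeq promoter windows (GRCh38.p14) that run from 250 bases before to 50 bases after each annotated start. A window was present for 38 of the 45 genes, and DDX18, MPHOSPH10, NOLC1, PUS1, RRP12, TCOF1 and BOP1 had none in the table. CACGTG reads the same on both strands. It was present for 19 of the 38 genes (50%), against 12.7% of 9414 tested genes with a window and 8.77% of all 27305 genes with one. The looser form CANNTG, also the same on both strands and including CACGTG, was present for 76.3% of the 38 genes and 67.0% of the tested genes. Of the 22 CACGTG sites, 17 began within 50 bases of a start, in 16 genes. A match describes the letters only, and MYC binding was not measured here. The windows below are those of the 6 genes with CACGTG that differed most between K148R and parental cells, and of ODC1, chosen after its values were seen because it moved the other way. They are written 5′ to 3′ with CACGTG in capitals.
PRMT3, chr11:20387466-20387765 on the plus strand: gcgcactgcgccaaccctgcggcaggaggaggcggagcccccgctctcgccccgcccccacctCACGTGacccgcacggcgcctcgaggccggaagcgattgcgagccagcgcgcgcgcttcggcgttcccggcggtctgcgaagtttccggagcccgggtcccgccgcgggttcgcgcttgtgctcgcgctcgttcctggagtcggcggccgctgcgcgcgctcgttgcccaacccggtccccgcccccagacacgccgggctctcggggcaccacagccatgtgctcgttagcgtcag
DCTPP1, chr16:30429751-30430050 on the minus strand: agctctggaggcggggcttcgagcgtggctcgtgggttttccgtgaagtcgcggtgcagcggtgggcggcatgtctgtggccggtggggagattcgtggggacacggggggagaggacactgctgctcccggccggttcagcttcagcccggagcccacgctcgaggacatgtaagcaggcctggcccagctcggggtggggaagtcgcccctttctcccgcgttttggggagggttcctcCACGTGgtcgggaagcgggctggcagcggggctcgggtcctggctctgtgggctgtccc
FBL, chr19:39846330-39846629 on the minus strand: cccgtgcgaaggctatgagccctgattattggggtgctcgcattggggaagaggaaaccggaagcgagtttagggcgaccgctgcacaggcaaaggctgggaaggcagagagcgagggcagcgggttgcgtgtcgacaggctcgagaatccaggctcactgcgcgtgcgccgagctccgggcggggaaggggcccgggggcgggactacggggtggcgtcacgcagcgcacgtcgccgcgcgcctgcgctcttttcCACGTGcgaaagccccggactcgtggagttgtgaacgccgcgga
MRTO4, chr1:19251555-19251854 on the plus strand: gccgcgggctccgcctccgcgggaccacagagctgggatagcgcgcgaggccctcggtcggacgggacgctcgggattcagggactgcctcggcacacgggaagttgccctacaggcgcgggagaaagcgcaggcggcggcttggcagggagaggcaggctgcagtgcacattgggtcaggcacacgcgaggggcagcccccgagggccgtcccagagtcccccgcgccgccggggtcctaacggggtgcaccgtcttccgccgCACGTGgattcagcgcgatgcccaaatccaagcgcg
GNL3, chr3:52685782-52686081 on the plus strand: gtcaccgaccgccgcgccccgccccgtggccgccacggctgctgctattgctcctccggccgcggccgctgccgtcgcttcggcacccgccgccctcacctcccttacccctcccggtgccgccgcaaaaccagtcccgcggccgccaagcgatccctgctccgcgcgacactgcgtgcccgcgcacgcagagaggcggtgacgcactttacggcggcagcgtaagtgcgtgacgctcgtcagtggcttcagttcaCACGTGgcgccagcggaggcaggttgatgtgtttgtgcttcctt
IPO4, chr14:24188767-24189066 on the minus strand: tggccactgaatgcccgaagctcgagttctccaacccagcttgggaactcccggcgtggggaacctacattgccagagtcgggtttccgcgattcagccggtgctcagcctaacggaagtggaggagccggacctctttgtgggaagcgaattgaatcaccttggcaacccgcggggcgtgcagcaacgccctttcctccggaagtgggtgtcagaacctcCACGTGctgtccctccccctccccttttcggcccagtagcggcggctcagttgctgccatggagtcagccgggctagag
ODC1, chr2:10447963-10448262 on the minus strand: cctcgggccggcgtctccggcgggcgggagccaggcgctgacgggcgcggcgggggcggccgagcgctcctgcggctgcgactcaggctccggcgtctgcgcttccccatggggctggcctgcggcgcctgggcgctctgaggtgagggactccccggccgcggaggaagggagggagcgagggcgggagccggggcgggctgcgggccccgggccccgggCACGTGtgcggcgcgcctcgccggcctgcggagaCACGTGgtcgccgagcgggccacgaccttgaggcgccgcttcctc

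The site lay 6 bases after the start in both FBL and GNL3 and 14 after it in MRTO4, counting the start base as 0. The starts are those of the RefSeq table, where 8 of the genes had more than 1 window. They lay inside the GENCODE bounds in all the genes printed above, furthest in GNL3. The GNL3 window begins at 52685782, and GENCODE begins the gene at 52681156. The site lay 9 bases before the start in DCTPP1, 29 before it in IPO4 and 187 before it in PRMT3. ODC1 held a pair of sites, 29 bases before and 5 after the start.

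**Figure D2:**
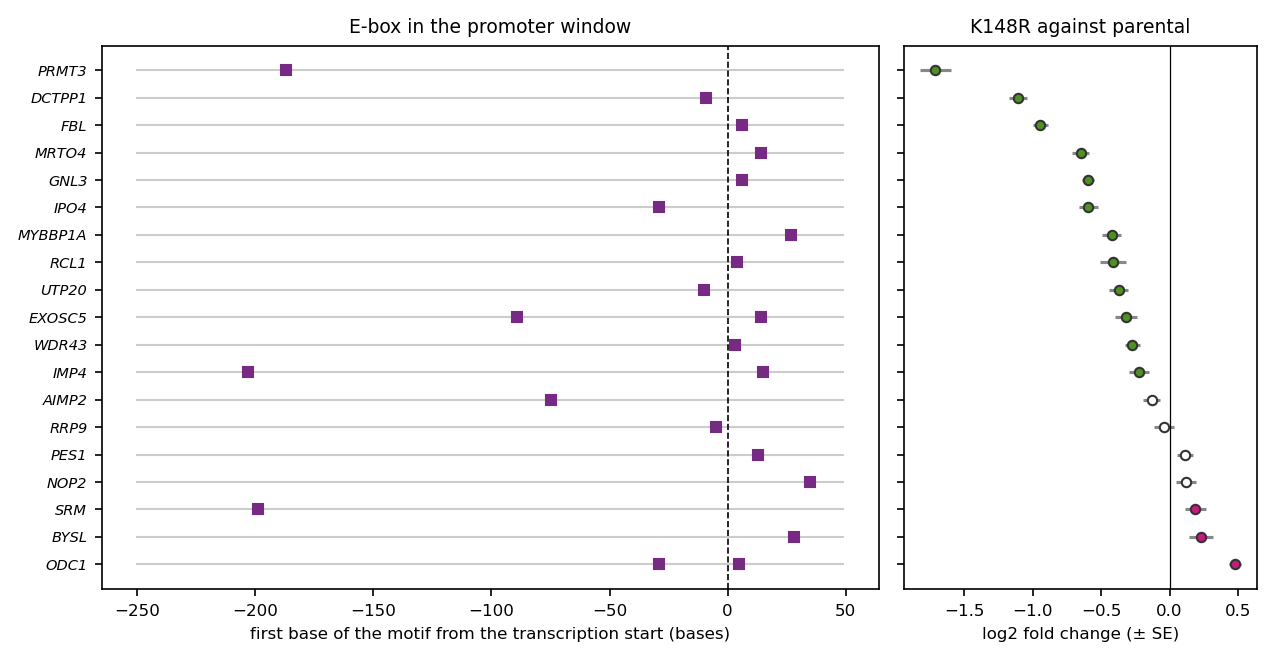
Left, first base of each CACGTG site from the annotated start (bases, dashed line at the start) in the 19 genes that held one. Right, log2 fold change ± SE of the same genes in K148R against parental cells, with genes called lower in green, called higher in pink and not called in white. Most sites lie within 50 bases of the start.

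The first comparison set K148R cells against parental cells. Of the 45 genes, 33 fell and 4 rose, and 8 did not pass the test, an edgeR quasi-likelihood F test with Benjamini-Hochberg adjustment over all 12845 genes and a threshold of 0.05. Over all tested genes 75.1% were called, 37.3% lower and 37.8% higher, and the share of calls among the 45, 82.2%, was near that background. The median log2 fold change of the 45 was -0.41 (interquartile range -0.59 to -0.13), against -0.0035 over all tested genes. Most changes were moderate: 3 of the 45 were called at 2-fold or more, against 29.2% of all tested genes, and these were TCOF1, PRMT3 and DCTPP1. Summed over the 45 genes, expression was 7737 to 8001 CPM in the K148R libraries, against 10817 to 10933 CPM in the parental libraries. In bulk RNA, fewer cells with a given transcript and less of it per cell cannot be told apart.

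All 6 genes grouped as nucleolar hubs and RNA polymerase I fell in K148R cells, where 37.3% of all tested genes were called lower. Only POLR1B of these encodes a polymerase subunit, and of 14 other RNA polymerase I genes 7 fell and 4 rose. TCOF1 (chromosome 5, 150357629 to 150400308 on GRCh38), which encodes treacle, a nucleolar protein needed for transcription of ribosomal RNA genes, was at 75.4, 74.1 and 63.2 CPM in K148R cells, 202, 203 and 168 CPM in K148Q cells, and 234, 224 and 229.8 CPM in parental cells. Every K148R library lay below every other library. Its log2 fold change against parental cells was -1.69 ± 0.082 (adjusted p = 8.6e-11), where the error is the SE. NPM1 (chromosome 5, 171387116 to 171411137) encodes nucleophosmin, an abundant nucleolar chaperone that is often mutated in acute myeloid leukaemia. It was at 1150.3, 1210.5 and 1208 CPM in K148R cells, 1177, 1219.8 and 1323 CPM in K148Q cells, and 1777, 1766 and 1749 CPM in parental cells. Both mutant groups lay below all parental libraries and overlapped each other, with a log2 fold change of -0.57 ± 0.048 (adjusted p = 5.2e-08) for K148R. NPM1 has many processed pseudogenes, and gene counts do not show how shared reads were assigned.

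NCL (chromosome 2, 231453531 to 231483641), which encodes nucleolin, a major nucleolar protein that acts in ribosomal RNA transcription and processing, was at 1669, 1710.1 and 1661 CPM in K148R cells, 2194, 2159 and 2234 CPM in K148Q cells, and 2443, 2375 and 2454 CPM in parental cells. The 3 groups did not overlap, with K148R lowest. The log2 fold change in K148R cells was -0.53 ± 0.039 (adjusted p = 1.0e-08). POLR1B (chromosome 2, 112541915 to 112577150), the second largest subunit of RNA polymerase I, was at 76.9, 71.4 and 79.5 CPM in K148R cells, 95.8, 91.3 and 98.6 CPM in K148Q cells, and 110.5, 105 and 108 CPM in parental cells, again without overlap between the groups, and fell by 0.51 ± 0.062 on the log2 scale (adjusted p = 2.8e-06). NOLC1, a chaperone of snoRNPs, and MYBBP1A, a nucleolar partner of MYB, had log2 fold changes of -0.51 and -0.42. Per kilobase of exon, NPM1, NCL and FBL had the highest levels of the 45 in parental cells, at 461, 349.8 and 268 CPM per kilobase, and in K148R cells they were at 311, 242 and 139.6.

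The 3 core snoRNP genes fell as well in K148R cells, beside 37.3% of all tested genes. FBL (chromosome 19, 39834458 to 39846414) encodes fibrillarin, the methyltransferase of box C/D snoRNPs. Its levels were 307, 319 and 285 CPM in K148R cells, 390.1, 399 and 351 CPM in K148Q cells, and 587, 587 and 575 CPM in parental cells, with no overlap between the groups and a log2 fold change of -0.94 ± 0.058 (adjusted p = 1.4e-09) in K148R cells. NOP56 (chromosome 20, 2652145 to 2658393), the scaffold protein of the same particle, was at 325, 345 and 299 CPM in K148R cells, 419, 408 and 369.7 CPM in K148Q cells, and 377, 369.9 and 381 CPM in parental cells. Its K148R libraries lay below all parental ones (log2 fold change -0.22 ± 0.061, adjusted p = 0.0046). DKC1 (chromosome X, 154762742 to 154777689), the pseudouridine synthase of box H/ACA snoRNPs and a component of telomerase, was at 188, 197 and 191 CPM in K148R cells, 235, 239.6 and 229 CPM in K148Q cells, and 253, 255 and 239.7 CPM in parental cells. The groups did not overlap, and DKC1 had a log2 fold change of -0.38 ± 0.05 (adjusted p = 7.3e-06). NOP56, NCL, GNL3, DKC1, PPAN, TBRG4, WDR43, AIMP2 and ODC1 carry snoRNA genes within their bounds, all on the same strand as the host gene. Those in the count table were assigned at most 175 counts each over all libraries. Which strand was counted was not given in the sources used here.

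Of 9 small subunit factors, 4 fell, 1 rose and 4 did not pass in K148R cells (median log2 fold change -0.07). That is 55.6% called, against 75.1% of all tested genes (37.3% lower and 37.8% higher). RCL1, which in yeast takes part in a cut of the precursor RNA, had a log2 fold change of -0.41 (adjusted p = 0.0013), and UTP20 of -0.37 (adjusted p = 2.3e-04). IMP4, a protein of the U3 snoRNP, and WDR43 had log2 fold changes of -0.22 (adjusted p = 0.014) and -0.27 (adjusted p = 3.9e-04). The WDR43 call ended and its sign turned with a correction for GC content and length (log2 fold change 0.069, adjusted p = 0.18). BYSL, which encodes bystin, was at 53.0, 47.7 and 50.1 CPM in K148R cells, 55.1, 54.7 and 43.3 CPM in K148Q cells, and 44.1, 42.4 and 42.1 CPM in parental cells, with its K148R libraries above the parental ones and K148Q replicate 3 below the other K148Q libraries. BYSL rose in K148R cells by 0.23 (adjusted p = 0.032). RRP12, RRP9, NOC4L and MPHOSPH10 did not pass, with log2 fold changes of -0.067, -0.043, -0.0035 and 0.01. With that correction RRP12 was called lower at -0.33 (adjusted p = 3.3e-07) and MPHOSPH10 higher at 0.38 (adjusted p = 3.7e-07). NOC4L was at 32.1, 29.7 and 28.7 CPM in K148R cells, 30.4, 31.7 and 27.8 CPM in K148Q cells, and 28.7, 32.1 and 30.0 CPM in parental cells, with all 3 groups overlapping. MPHOSPH10, which binds with IMP4 in the same particle, was at 65.2, 69.1 and 69.5 CPM in K148R cells, 52.7, 52.7 and 68.6 CPM in K148Q cells, and 67.0, 69.4 and 65.9 CPM in parental cells, and the K148R and parental libraries overlapped.

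Of 14 large subunit factors, 10 fell, 1 rose and 3 did not pass in K148R cells (median log2 fold change -0.41). That is 78.6% called, near the 75.1% of all tested genes (37.3% lower and 37.8% higher). PA2G4, which binds the large subunit and encodes the protein EBP1, was at 347, 366 and 341 CPM in K148R cells, 633, 617 and 585 CPM in K148Q cells, and 646, 626 and 634 CPM in parental cells. Only its K148R libraries stood apart, with a log2 fold change of -0.86 ± 0.048 (adjusted p = 5.1e-10). LAS1L, needed to cut the spacer between the large subunit RNAs, and NIP7, an export and processing factor, had log2 fold changes of -0.83 and -0.75. MRTO4, a stalk assembly factor, had -0.65, GNL3 (nucleostemin, a nucleolar GTPase) -0.59, and the helicase gene DDX18 -0.47. WDR74, GRWD1 and NOP16 had log2 fold changes of -0.36, -0.30 and -0.15.

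BOP1 and PES1 encode partners in one assembly complex. BOP1 was at 227, 215 and 206 CPM in K148R cells, 283, 290.3 and 220.4 CPM in K148Q cells, and 294, 305 and 299 CPM in parental cells, and both mutant groups lay below the parental libraries and overlapped each other. It fell in K148R cells (log2 fold change -0.47 ± 0.084, adjusted p = 1.7e-04). PES1 was at 178, 174 and 163 CPM in K148R cells, 169, 171 and 157 CPM in K148Q cells, and 161, 156 and 159 CPM in parental cells. The K148R libraries of PES1 lay just above the parental ones but the test was not passed (log2 fold change 0.11 ± 0.056, adjusted p = 0.078). NOC2L, also known as an inhibitor of histone acetyltransferases, and NOP2, a methyltransferase of ribosomal RNA, did not pass either, at -0.04 and 0.12. With the correction for GC content and length NOC2L was called lower at -0.28 (adjusted p = 6.5e-08). PPAN was the large subunit gene that rose. It was at 14.7, 13.8 and 13.5 CPM in K148R cells, 11.0, 10.6 and 8.18 CPM in K148Q cells, and 8.98, 8.46 and 8.76 CPM in parental cells, with every K148R library above all others and a log2 fold change of 0.68 ± 0.12 (adjusted p = 1.2e-04). PPAN has a low level and shares 56.0% of its exon length with the annotated readthrough gene PPAN-P2RY11, to which 1 count in all was assigned.

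All 4 genes of RNA decay, modification and import fell in K148R cells, beside 37.3% of all tested genes. PRMT3 (chromosome 11, 20387530 to 20509294), a methyltransferase of a small subunit protein, was at 12.2, 13.2 and 16.2 CPM in K148R cells, 34.2, 34.3 and 40.9 CPM in K148Q cells, and 43.5, 44.1 and 48.4 CPM in parental cells. K148R libraries lay far below the rest, with a log2 fold change of -1.71 ± 0.11 (adjusted p = 2.7e-09). This was within its SE of that of TCOF1, and with the correction for GC content and length PRMT3 was at -1.21 and TCOF1 at -1.97. PUS1, a pseudouridine synthase of transfer RNAs, was at 41.6, 37.4 and 38.2 CPM in K148R cells, 75.1, 78.0 and 62.8 CPM in K148Q cells, and 67.7, 67.6 and 70.8 CPM in parental cells. K148R libraries of PUS1 lay below all others (log2 fold change -0.81, adjusted p = 4.8e-07). IPO4, an import receptor for histones and ribosomal proteins, was at 58.8, 62.7 and 59.2 CPM in K148R cells, 121, 118 and 102 CPM in K148Q cells, and 88.7, 92.0 and 91.7 CPM in parental cells. The 3 groups of IPO4 did not overlap, with K148Q highest and K148R lowest, and its log2 fold change in K148R cells was -0.59 ± 0.07 (adjusted p = 2.3e-06). EXOSC5, a subunit of the RNA exosome, was at 91.9, 91.7 and 90.6 CPM in K148R cells, 93.5, 98.8 and 76.1 CPM in K148Q cells, and 113, 118 and 109.9 CPM in parental cells. Both mutant groups of EXOSC5 lay below the parental libraries (log2 fold change for K148R -0.32, adjusted p = 0.0026). IPO4 shares 69.3% of its exon length with an unnamed annotated gene on the same strand that is not in the count table, and NOP2 54.4% with another. DCTPP1 shares 42.1% of its exon length with ZNF771 and AIMP2 28.9% with EIF2AK1, both on the opposite strand.

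The 5 genes grouped under mitochondrial gene expression, with NDUFAF4 placed among them, fell too, beside 37.3% of all tested genes. NDUFAF4, an assembly factor of respiratory complex I, had a log2 fold change of -0.80 ± 0.13 (adjusted p = 4.4e-05). TFB2M, a factor of mitochondrial transcription, was at 35.3, 40.5 and 40.6 CPM in K148R cells, 43.8, 41.1 and 45.8 CPM in K148Q cells, and 56.3, 59.5 and 60.6 CPM in parental cells. Both mutant groups of TFB2M lay below the parental libraries (log2 fold change for K148R -0.60, adjusted p = 5.2e-06). TBRG4 and SUPV3L1, which act on mitochondrial RNA, and the coactivator gene PPRC1 had log2 fold changes of -0.50, -0.47 and -0.23.

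The remaining growth genes were split. ODC1 (chromosome 2, 10439968 to 10448504), which encodes ornithine decarboxylase, the first enzyme of polyamine synthesis, was at 376, 385 and 384 CPM in K148R cells, 337, 345 and 340.4 CPM in K148Q cells, and 275, 277 and 270.5 CPM in parental cells. The groups did not overlap, with K148R highest and parental lowest, and the log2 fold change in K148R cells was 0.48 ± 0.044 (adjusted p = 1.4e-07). SRM, spermidine synthase, was at 171, 167 and 161 CPM in K148R cells, 186, 185 and 147 CPM in K148Q cells, and 144, 152 and 141 CPM in parental cells. K148R libraries of SRM lay above the parental ones, and the rise of 0.19 was close to the threshold (adjusted p = 0.042). DCTPP1, which breaks down dCTP, was at 61.2, 61.6 and 63.6 CPM in K148R cells, 106, 102 and 91.1 CPM in K148Q cells, and 135, 134 and 132 CPM in parental cells. The 3 groups of DCTPP1 did not overlap, with K148R lowest (log2 fold change -1.11 ± 0.065, adjusted p = 7.6e-10). AIMP2, a scaffold of the transfer RNA synthetase complex, was at 57.6, 57.5 and 58.5 CPM in K148R cells, 76.7, 82.4 and 78.4 CPM in K148Q cells, and 62.6, 61.6 and 65.7 CPM in parental cells. Its K148R libraries lay below the parental ones but the test was not passed (log2 fold change -0.13, adjusted p = 0.069).

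Of the 37 calls in K148R against parental cells, 31 held in each of 19 other fits. The call of SRM was lost without any 1 of the 6 libraries compared, and those of BYSL and NOP16 without any 1 of parental replicates 1, 2 and 3 and K148R replicates 1 and 3. With all libraries, DESeq2, library totals only and no filter on low counts each ended the SRM call. Library totals only ended that of BYSL, and DESeq2, RLE scaling and a filter of at least 1 CPM in every library each ended that of NOP16. The call of IMP4 was lost without K148R replicate 2, and that of PPRC1 without K148R replicate 2 or 3. The count of genes higher was 2 without any one of parental replicates 1, 2 and 3 and K148R replicate 1. It was 6, with 34 genes lower, without K148Q replicate 3, where NOP2 and PES1 were called higher and AIMP2 lower. A fit of only the 2 groups compared also called NOP2 and PES1 higher and AIMP2 lower. Leaving out 1 library put the count of all genes called at 9164 to 10473, beside 9649 with all libraries.

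The correction for GC content and length kept most directions but changed several sizes by over 1.5 times. In K148R against parental cells NPM1 was then at -0.20 (beside -0.57), GNL3 at -0.18, DDX18 at -0.24, NDUFAF4 at -0.24 and TFB2M at -0.18, all of them genes with less GC than the median of the 45. MYBBP1A was at -0.71 (beside -0.42), GRWD1 at -0.63, PPRC1 at -0.52 and NOP56 at -0.34, each further below 0, and BYSL was at 0.15. All 10 of these calls held under the correction, which ended the call of WDR43 and added those of MPHOSPH10, RRP12 and NOC2L.

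**Figure D3:**
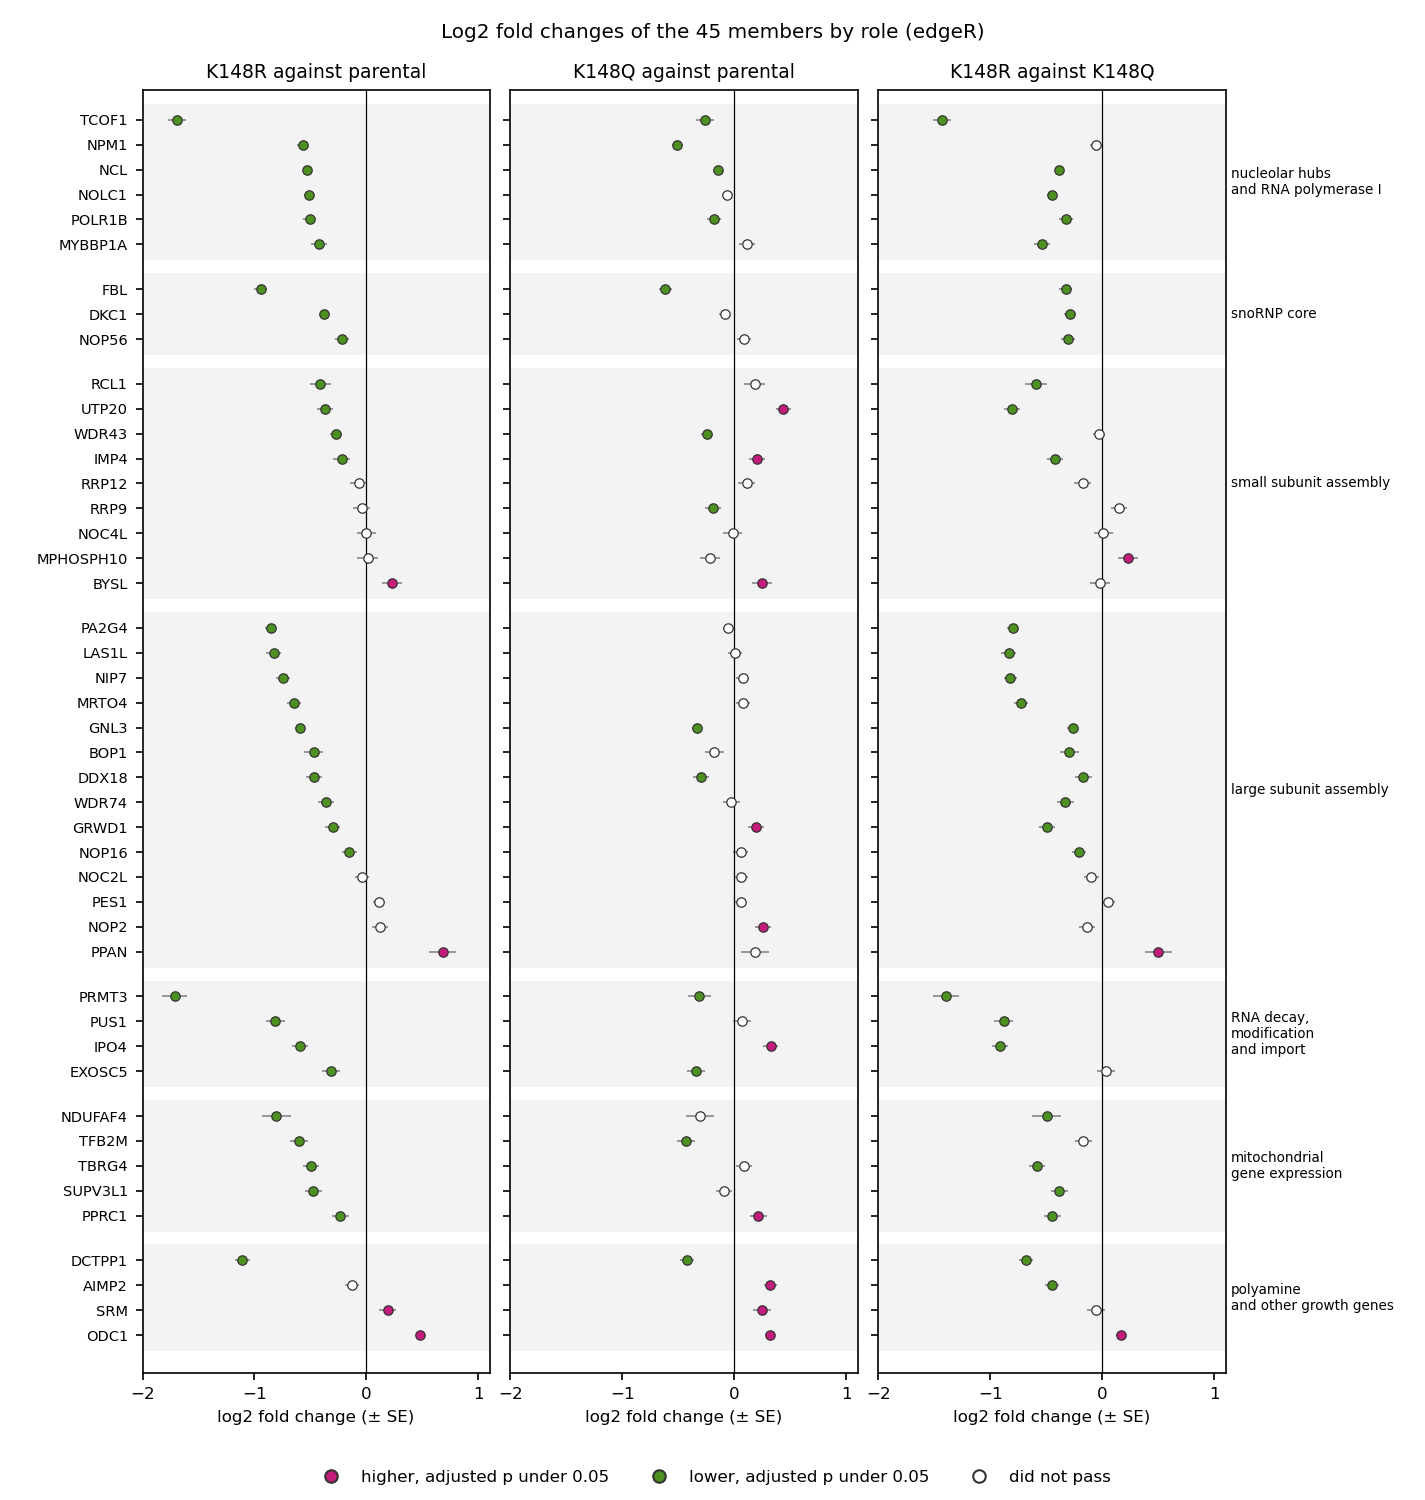
Log2 fold change ± SE (horizontal axis) of the 45 genes (rows, grouped by role) in the 3 comparisons, with genes called higher in pink, called lower in green and not called in white. In the K148R panels most points lie left of 0, and in K148Q against parental cells they lie on both sides within 0.62 of it.

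The second comparison set K148Q cells against parental cells. Of the 45 genes, 10 rose and 13 fell, and 22 did not pass. That is 51.1% called, against 53.3% of all tested genes (27% higher and 26.3% lower), so the shares were close. The median log2 fold change was 0.0058, against -0.0072 over all tested genes, and 0 of the 45 were called at 2-fold or more, against 11.4% of tested genes. Without K148Q replicate 3, 20 rose and 14 fell, with a median of 0.05. The 53.3% above does not belong to that fit. Leaving out 1 library put the count of all genes called at 5829 to 8402, beside 6848 with all libraries. The count of genes higher was 5 without any one of parental replicates 1 and 2 and K148Q replicates 1 and 2, and 6 without parental replicate 3. Summed over the 45 genes, expression was 9639 to 9946 CPM in the K148Q libraries, against 10817 to 10933 CPM in the parental libraries. NPM1, NCL and FBL made up most of that difference. They averaged 1240, 2195 and 380 CPM in K148Q cells, against 1764, 2424 and 583 CPM in parental cells.

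The genes that fell in K148Q cells included NPM1, NCL and FBL, the 3 with the highest levels per kilobase. FBL had the lowest log2 fold change, -0.62 ± 0.057 (adjusted p = 6.0e-07), and NPM1 followed with -0.51 ± 0.048 (adjusted p = 6.9e-07), both without overlap with parental libraries. NCL had a log2 fold change of -0.14 ± 0.039 (adjusted p = 0.0063). TFB2M and DCTPP1 had log2 fold changes of -0.43 ± 0.077 (adjusted p = 2.9e-04) and -0.43 ± 0.063 (adjusted p = 5.7e-05). GNL3 was at 235, 239 and 232 CPM in K148Q cells, against 299, 298 and 290.3 CPM in parental cells, and DDX18 at 233, 235 and 289.9 CPM in K148Q cells, against 318, 304 and 310.0 CPM in parental cells. All K148Q libraries lay below the parental ones for both genes, and K148Q replicate 3 was the highest of its group for DDX18. The log2 fold change was -0.33 for GNL3 and -0.30 for DDX18. EXOSC5, PRMT3, TCOF1, WDR43, RRP9 and POLR1B also fell, with log2 fold changes of -0.35, -0.31, -0.26, -0.24, -0.19 and -0.18. The PRMT3 and WDR43 values were both -0.08 with a correction for GC content and length (adjusted p = 0.38 and 0.17), which ended these calls. GNL3, DDX18 and TFB2M were at -0.16, -0.18 and -0.27 under it and remained called. Without K148Q replicate 3, TCOF1 was at -0.17 and remained called.

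The genes that rose in K148Q cells did so by at most 0.44 on the log2 scale. UTP20, a large scaffold protein of small subunit assembly, was at 36.2, 37.7 and 40.2 CPM in K148R cells, 66.0, 65.9 and 67.7 CPM in K148Q cells, and 48.4, 47.1 and 51.9 CPM in parental cells. The 3 groups did not overlap, with K148Q highest, and UTP20 had a log2 fold change of 0.44 ± 0.069 (adjusted p = 1.0e-04) against parental cells. IPO4, AIMP2 and ODC1 followed with 0.32 ± 0.069 (adjusted p = 0.0012), 0.32 ± 0.061 (adjusted p = 5.0e-04) and 0.31 ± 0.044 (adjusted p = 3.7e-05), and none of their K148Q libraries overlapped the parental ones. UTP20 and these 3 all held CACGTG in the promoter window, as did 7 of the genes that fell (FBL, DCTPP1, GNL3, EXOSC5, PRMT3, WDR43 and RRP9). NOP2, BYSL, SRM, PPRC1, IMP4 and GRWD1 rose as well, with log2 fold changes of 0.26, 0.25, 0.25, 0.21, 0.20 and 0.19. In each of these 6, K148Q replicate 3 was the lowest of the K148Q libraries. Without it they were at 0.27 (GRWD1) to 0.37 (BYSL).

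The calls in K148Q cells were the least stable of the 3 comparisons. Of 23 calls, 13 held in each of 19 other fits: AIMP2, DCTPP1, DDX18, EXOSC5, FBL, GNL3, IPO4, NCL, NPM1, ODC1, TCOF1, TFB2M and UTP20. The calls of BYSL, IMP4 and PPRC1 were lost without any 1 of parental replicates 1, 2 and 3 and K148Q replicates 1 and 2. That of GRWD1 was lost without parental replicate 1 or 2, K148Q replicate 1 or 2, or K148R replicate 2. SRM and POLR1B lost theirs without parental replicate 1 or 3 or K148Q replicate 1 or 2, PRMT3 without parental replicate 3 or K148Q replicate 1 or 2, NOP2 without parental replicate 2, and RRP9 without any library other than K148R replicate 3. RRP9 also lost its call with DESeq2, RLE scaling, no filter on low counts and only the 2 groups compared. Upper quartile scaling ended the calls of BYSL, IMP4, PPRC1 and GRWD1. MYBBP1A, NOP56, RRP12, TBRG4, MRTO4, PUS1, RCL1, PES1, NOC2L and PPAN did not pass with all libraries and were called higher without K148Q replicate 3, at 0.11 to 0.32, and MPHOSPH10 and NDUFAF4 were called lower. LAS1L had the largest p of the 45, at 139, 139 and 125 CPM in K148Q cells, against 132, 136 and 133 CPM in parental cells, with overlapping groups and a log2 fold change of 0.0058 ± 0.065. NOLC1 (-0.063), DKC1 (-0.088), BOP1 (-0.18), SUPV3L1 (-0.09), PA2G4 (-0.055), NIP7 (0.073), NOP16 (0.056), WDR74 (-0.028) and NOC4L (-0.014) did not pass either. BOP1 was at -0.052 (adjusted p = 0.29) without K148Q replicate 3, and it was called lower in 4 of 19 other fits, among them that with the GC content and length correction (-0.21). That correction also called MYBBP1A and RCL1 higher, at 0.093 and 0.19.

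**Figure D4:**
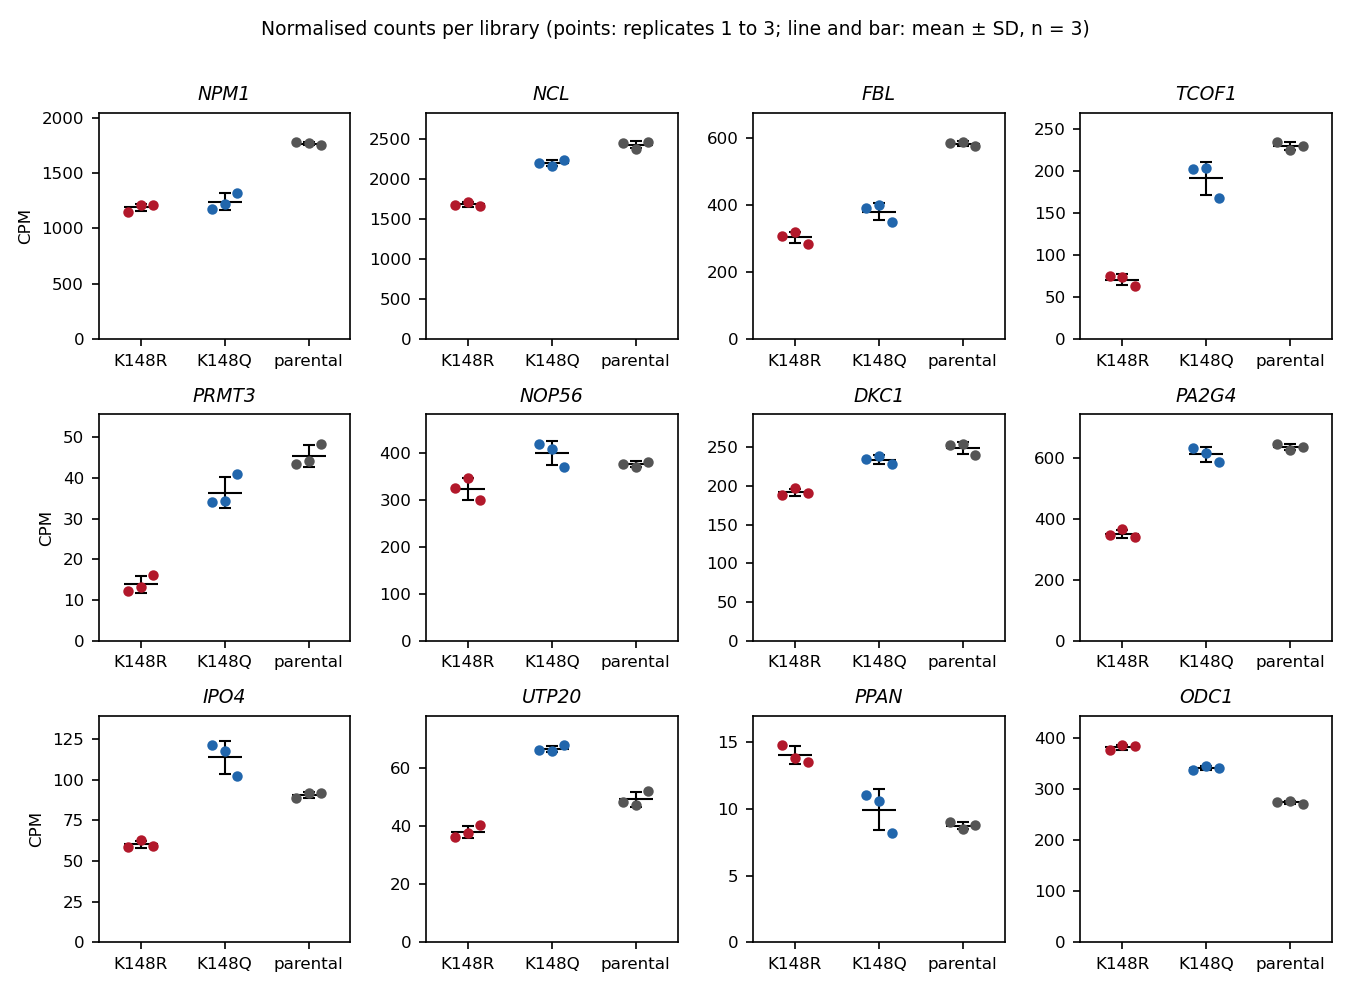
Normalised counts (CPM, vertical axis from 0) of 12 of the 45 genes in each library, with groups on the horizontal axis. Points are replicates 1 to 3 and the line and bar are the mean ± SD of 3 libraries. NPM1 and FBL are lower in both mutants, TCOF1, PRMT3 and PA2G4 are far lower in K148R, UTP20 and IPO4 are highest in K148Q, and ODC1 is higher in both mutants.

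The third comparison set K148R cells against K148Q cells, which also tests whether the effects of the 2 substitutions against the shared parental libraries differ. Of the 45 genes, 30 were lower and 3 higher in K148R cells, and 12 did not pass. Over all tested genes 71% were called, 34.5% lower and 36.6% higher, so the share of calls among the 45, 73.3%, was near that background. The median log2 fold change of the 45 was -0.33, against 0.017 over all tested genes, and 2 genes, TCOF1 and PRMT3, were called at 2-fold or more, against 25.9% of tested genes. Without K148Q replicate 3, 34 were lower and 3 higher, with a median of -0.37.

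TCOF1 and PRMT3 had the lowest log2 fold changes between the mutants, -1.43 ± 0.082 (adjusted p = 7.3e-10) and -1.40 ± 0.11 (adjusted p = 3.6e-08), followed by IPO4 with -0.91 ± 0.07 (adjusted p = 2.2e-08) and PUS1 with -0.88 ± 0.084 (adjusted p = 2.4e-07). LAS1L, NIP7, UTP20, PA2G4 and MRTO4 had log2 fold changes of -0.84, -0.82, -0.81, -0.80 and -0.73. The 3 snoRNP genes were lower in K148R, FBL by 0.32, NOP56 by 0.30 and DKC1 by 0.29 on the log2 scale. NCL, NOLC1, MYBBP1A and POLR1B were lower in K148R as well, at -0.39, -0.45, -0.54 and -0.33. The same held for DCTPP1 (-0.68), RCL1 (-0.59), TBRG4 (-0.58), GRWD1 (-0.49), AIMP2 (-0.45), PPRC1 (-0.45), IMP4 (-0.42), SUPV3L1 (-0.38), WDR74 (-0.33), BOP1 (-0.29) and NOP16 (-0.21). With the GC content and length correction MYBBP1A, GRWD1 and PPRC1 were at -0.81, -0.78 and -0.69.

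NPM1 did not pass, with a log2 fold change of -0.06 (adjusted p = 0.27) between the mutants. With the correction for GC content and length, NPM1 was higher in K148R than in K148Q cells (log2 fold change 0.17, adjusted p = 4.5e-06), so its order between the mutants depended on that setting. WDR43 likewise turned from -0.03 to 0.14, and PES1 from 0.053 to -0.13, and both were called under the correction (adjusted p = 0.0082 for WDR43 and 0.0034 for PES1). GNL3, NDUFAF4 and DDX18 were lower in K148R by 0.26, 0.50 and 0.17, and these calls ended under the correction, at -0.02, -0.16 and -0.063. That of DDX18 was also lost without any 1 of parental replicates 1, 2 and 3, K148Q replicate 3, and K148R replicates 1, 2 and 3. Limma-voom, upper quartile scaling, a filter of at least 1 CPM in every library and only the 2 groups compared each ended the DDX18 call too.

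The 3 genes higher in K148R than in K148Q cells were PPAN (0.50 ± 0.12, adjusted p = 0.0016), ODC1 (0.16 ± 0.044, adjusted p = 0.0039) and MPHOSPH10 (0.23 ± 0.091, adjusted p = 0.037). Under the correction ODC1 was at 0.082 and MPHOSPH10 at 0.44, both still called. The MPHOSPH10 call was lost without any one of parental replicates 1, 2 and 3, K148Q replicates 1 and 2, and K148R replicates 2 and 3. DESeq2, library totals only and only the 2 groups compared each ended the MPHOSPH10 call too. BYSL, NOC4L, EXOSC5, SRM, NOP2, NOC2L, RRP9, RRP12 and TFB2M did not pass. RRP12 was next to the threshold (log2 fold change -0.18, adjusted p = 0.05) and was called lower in 9 of 19 other fits. Without K148Q replicate 3, RRP12, NOP2, SRM, NOC2L and BYSL were called lower, at -0.28, -0.23, -0.18, -0.18 and -0.14. Under the correction RRP12, NOC2L, NOP2 and SRM were called lower, at -0.42, -0.32, -0.30 and -0.13. BYSL and NOC4L had the largest p, with log2 fold changes of -0.019 ± 0.09 and 0.010 ± 0.085. Of the 33 calls, 29 held in each of 19 other fits.

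Genes with and without CACGTG in the promoter window were set side by side. In K148R against parental cells, 12 of 19 genes with the site fell and 3 rose (median log2 fold change -0.32), and 16 of 19 genes without it fell and 1 rose (median -0.47). In K148Q against parental cells, 7 of 19 with the site fell and 8 rose (median 0.11), and 4 of 19 without it fell and 2 rose (median -0.014). In K148R against K148Q cells, 11 of 19 with the site were lower and 1 higher (median -0.32), and 14 of 19 without it were lower and 1 higher (median -0.33). These counts include K148Q replicate 3. Without it, MYBBP1A, MRTO4, RCL1 and PES1 with the site were also called higher in K148Q against parental cells, and RRP9 was no longer called. Among genes without the site, NOP56, TBRG4, NOC2L and PPAN were then also called higher and NDUFAF4 lower in that comparison. In K148R against parental cells NOP2 and PES1 were then also called higher and AIMP2 lower, all with the site. In K148R against K148Q cells NOP2, SRM and BYSL with the site and NOC2L without it were then also called lower. These are descriptions of the 38 genes with a window, and the difference between the classes was not tested.

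The other genes of the same pathways were described from 7 lists with 154 symbols, of which 150 were in the count table and all of these were tested. In K148R against parental cells, 27 of 39 other small subunit genes fell and 3 rose, and 24 of 42 other large subunit genes fell and 6 rose. That is 76.9% and 71.4% called, near the 75.1% of all tested genes (37.3% lower and 37.8% higher). HEATR1, which acts in transcription and processing of ribosomal RNA, was at 74.3 ± 1.53 CPM in K148R and 152 ± 7.3 CPM in parental cells, and the assembly factor gene TSR1 at 127 ± 1.23 CPM in K148R and 214 ± 1.85 CPM in parental cells. TBL3 had a log2 fold change of -1.16 (adjusted p = 9.5e-09). GTPBP4, a GTPase of large subunit assembly, was at 75.3 ± 1.9 CPM in K148R and 178 ± 3.53 CPM in parental cells, and BRIX1 had a log2 fold change of -1.32 (adjusted p = 5.0e-09). UTP3, DDX49 and ZNF622 rose, by 0.74, 0.75 and 0.84 on the log2 scale. WDR12, the third partner of BOP1 and PES1, had a log2 fold change of -0.73 (adjusted p = 1.3e-07).

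Of 11 other snoRNP genes, 10 fell and 0 rose in K148R cells (median log2 fold change -0.65). NOP10, whose K148R and parental libraries overlapped, was at 100.1 ± 4.26 CPM in K148R and 104.9 ± 3.22 CPM in parental cells. RUVBL1 and RUVBL2, paired ATPases that assemble snoRNPs among other complexes, were at 59.6 ± 0.698 and 158 ± 5.49 CPM in K148R cells, against 197 ± 1.36 and 324 ± 2.35 CPM in parental cells. NOP58, the partner of NOP56, had a log2 fold change of -0.65 (adjusted p = 2.4e-08). Of 13 other exosome genes, 10 fell and 2 rose. Called were 90.9% of the snoRNP and 92.3% of the exosome genes, against 75.1% of all tested genes (37.3% lower and 37.8% higher). EXOSC9 and EXOSC8 had log2 fold changes of -2.09 and -1.64, beside -0.32 for EXOSC5, while EXOSC4 and EXOSC6 rose by 0.42 and 0.36. These subunits thus differed in direction within one complex.

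Polymerase genes were mixed in K148R cells. Of 14 other RNA polymerase I genes, 7 fell and 4 rose. POLR1E and TAF1A, a subunit and an initiation factor of the enzyme, had log2 fold changes of -1.02 and -1.68. TAF1A had a low level, 1.76 ± 0.411 CPM in K148R and 5.70 ± 0.607 CPM in parental cells. POLR1A, the largest subunit, had a log2 fold change of 0.54 (adjusted p = 3.8e-06). POLR1A thus rose while POLR1B, its partner in the catalytic core, fell. Of 21 RNA polymerase III genes, 9 fell and 6 rose, with POLR3G at -2.64 and its close relative POLR3GL at 0.52 on the log2 scale. Of 10 other polyamine genes, 5 fell and 2 rose. SAT1, which acetylates polyamines for their breakdown or export, was at 27.7 ± 1.09 CPM in K148R and 11.1 ± 1.09 CPM in parental cells. ATP13A2, a lysosomal polyamine transporter, had a log2 fold change of 1.61 (adjusted p = 3.0e-08). SMOX, spermine oxidase, fell by 0.99. The shares called were 78.6% for RNA polymerase I, 71.4% for RNA polymerase III and 70% for polyamine genes, near the 75.1% of all tested genes.

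In K148Q against parental cells, 6 of 11 other snoRNP genes fell and 0 rose (NOP58 -0.27, PIH1D1 -0.39). Among other small subunit genes 9 of 39 fell and 6 rose, among other large subunit genes 15 of 42 fell and 6 rose, and among RNA polymerase III genes 3 of 21 fell and 8 rose. RNA polymerase I genes had 5 of 14 lower and 1 higher, exosome genes 3 of 13 in each direction, and polyamine genes 4 of 10 lower and 3 higher. RSL24D1, a large subunit factor, had a log2 fold change of -0.63, and POLR1A of 0.44. The shares called were 38.5% for small subunit, 50% for large subunit and 54.5% for snoRNP genes, against 53.3% of all tested genes (26.3% lower and 27% higher). They were 42.9% for RNA polymerase I, 46.2% for exosome, 52.4% for RNA polymerase III and 70% for polyamine genes.

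Between the mutants, K148R was lower in 29 of 39 other small subunit genes and higher in 3, and lower in 23 of 42 other large subunit genes and higher in 8. It was lower in 10 of 11 snoRNP and 8 of 13 exosome genes and higher in 0 of either, lower in 6 and higher in 3 of 14 RNA polymerase I genes, lower in 9 and higher in 4 of 21 RNA polymerase III genes, and lower in 5 and higher in 3 of 10 polyamine genes. Over all tested genes 71% were called, 34.5% lower and 36.6% higher, beside 82.1% of the small subunit, 73.8% of the large subunit, 64.3% of the RNA polymerase I and 61.9% of the RNA polymerase III genes. The shares called were 90.9% for snoRNP, 61.5% for exosome and 80% for polyamine genes. GLTSCR2, a nucleolar large subunit factor, was at 660.1 ± 43.9 CPM in K148R and 416 ± 38.8 CPM in K148Q cells.

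**Figure D5:**
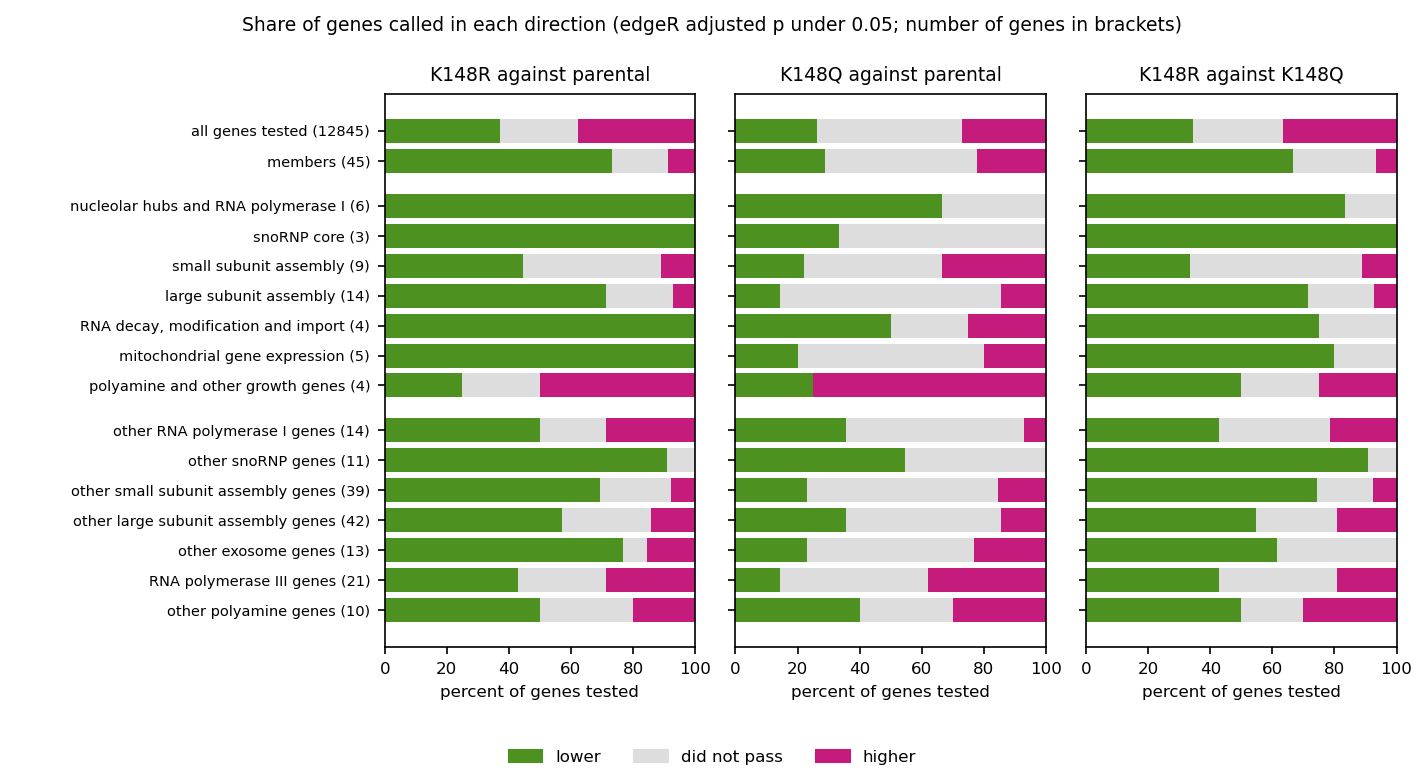
Share of genes called lower (green), not called (grey) and called higher (pink), in percent of genes tested, for all tested genes, the 45 genes, their 7 roles and the 7 other lists (rows, gene numbers in brackets) in the 3 comparisons. In the K148R panels the green share of the 45 genes exceeds that of all tested genes, and in K148Q against parental cells the called shares are 51.1% and 53.3%.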

How the data were processed

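Total RNA of 9 untreated MV4;11 libraries was sequenced, 3 per genotype, per the labels. The authors deposited raw, unnormalised read counts per gene symbol in 1 table. HISAT2 2.0.5, featureCounts 1.5.2 and FastQC 0.11.7, on build GRCh38, appear in the submitters' processing notes, with options, strand and annotation not given in the sources used here. Libraries were grouped by the genotype labels. Total counts were 13747087 to 18938391.

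Counts were filtered with filterByExpr, scaled with TMM and fitted over all 9 libraries with edgeR 4.0.16 in R 4.3.3 (robust quasi-likelihood F test, Benjamini-Hochberg adjustment over 12845 genes, called at 0.05). CPM values use TMM-scaled library sizes. SEs were derived from the F statistic. An exact permutation of 3 against 3 libraries cannot go below 0.1, so none is given. The model had no replicate term. Alternatives were DESeq2 1.42.0, limma-voom (limma 3.58.1), other scalings, filters and sample sets, a replicate term, GC content and length offsets (mgcv), and leaving out each library.

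Positions, exon lengths and GC content came from GENCODE v29, and promoter windows from RefSeq (GRCh38.p14). The 45 genes and all lists were chosen with earlier results of these data known. Values per library are given for NPM1, NCL, FBL, NOP56, DKC1, POLR1B and ODC1 and, per comparison, for the 4 called genes with the highest and the 4 with the lowest log2 fold change and the 2 with the largest p. Some further genes are shown beyond that rule, chosen after their values were seen. From each other list, the other named genes were among those with the smallest p per direction, not all of those that the rule allows. NOP58, NOP10 and WDR12 in K148R against parental cells lie outside it and were chosen after their values were seen.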

Additional observations from a re-analysis of the deposited data

Results flagged for a closer look

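Among the 45 genes, 5 rose in K148Q cells, fell in K148R cells and differed between the mutants by the same test (edgeR quasi-likelihood, adjusted over all genes). Both effects are set against the same parental libraries. The log2 fold change of K148R against K148Q cells was -0.91 for IPO4, -0.81 for UTP20, -0.49 for GRWD1, -0.45 for PPRC1 and -0.42 for IMP4, each called. Against parental cells IPO4 was at -0.59 in K148R and 0.32 in K148Q, and UTP20 at -0.37 in K148R and 0.44 in K148Q. These 4 calls held in all 19 other fits, whereas the K148Q calls of GRWD1, PPRC1 and IMP4 were each lost in 6 of them.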

How the results depend on the processing

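The count of the 45 genes that fell ranged from 31 to 34 in K148R against parental cells, 10 to 17 in K148Q against parental cells and 29 to 35 in K148R against K148Q cells over all alternatives. The count of genes higher in K148Q against parental cells was 6 with upper quartile scaling and 5 to 20 leaving out 1 library. The count higher in K148R against parental cells was 2 with library totals only and 2 to 6 leaving out 1 library, and the count higher in K148R against K148Q cells was 5 with the GC content and length correction. The median in K148R against parental cells was -0.46 with library totals only and -0.37 with that correction. With it the log2 fold change of WDR43 was 0.069 in K148R against parental cells, and in K148R against K148Q cells NPM1 was at 0.17, PES1 at -0.13 and WDR43 at 0.14. The cause was not tested. With the replicate block, 33 fell and 4 rose in K148R against parental cells, 16 fell and 10 rose in K148Q against parental cells, and 32 were lower and 3 higher in K148R against K148Q cells. The numbers were not taken as pairing: deviations of libraries with the same number correlated at -0.02 to 0.27, and not every library correlated best with its own number. Scaling moved the median of all tested genes by less than 0.1. Of the single-gene values under alternatives, 2394 kept their side of the threshold, 100 lost a call, 67 gained one and 4 turned sign with a call in either fit. Values near 0 that neither fit called also crossed 0 under some alternatives, such as those of LAS1L and NOC4L. At totals of 13747087 to 18938391 counts, the SE was highest for NDUFAF4 and PPAN among the 45 genes.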

Other observations

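Spread between libraries of a group was not even over the 45 genes. The coefficient of variation had a median of 5.2% in K148R, 6.78% in K148Q and 2.26% in parental libraries. It was highest for PRMT3 in K148R (15.1%) and for NDUFAF4 in both K148Q (19.0%) and parental libraries (6.19%). NPM1 and NCL together made up 36.5% of the summed CPM of the 45 genes in K148R, 34.9% in K148Q and 38.5% in parental cells.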
